A study of Homo sapiens with 8 samples.

Results

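The albumin (ALB) and alpha-fetoprotein (AFP) genes were followed here through the lists of H3K36me3 peaks from HepG2 cells, a human liver cancer line. The lists came from cells with and without a short hairpin RNA (shRNA) against SETD2. Members were the peaks of either list that overlapped the hg19 span of ALB (chr4:74269972-74287129) or AFP (chr4:74301933-74321888) by 1 bp or more, with both genes on the plus strand. The rule used gene positions and no measured value. It found 2 of 58863 peaks: 0 of the 23488 in the SETD2 knockdown list and 2 of the 35375 in the control list, 1 over each gene. So in the control cells a peak was called over the whole of ALB and the whole of AFP, and in the knockdown cells none was called over any base of either.

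The 8 libraries formed 4 groups of 2 replicates. The knockdown groups were H3K36me3 immunoprecipitate and input DNA from HepG2 cells that stably expressed an shRNA against SETD2. The control groups were the same pair from HepG2 cells that stably expressed an shRNA with no specific target. Cells of both kinds had been infected with lentivirus and selected with puromycin; the labels do not say whether a line was a clone or a mixed population, or whether replicates were separate cultures. The authors pooled both replicates before calling peaks, so each condition had 1 list, which leaves no replicate spread to test the conditions against. Pooled immunoprecipitates held 67053273 tags in the knockdown and 47880817 in the control after duplicate removal, and pooled inputs held 69095038 and 67158956. The knockdown immunoprecipitate was thus the deeper library. Intervals below are 95% intervals that cover counting error only. SETD2 itself was not measured in the data used here.

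Albumin is the most abundant protein of blood plasma and is secreted by hepatocytes. Alpha-fetoprotein is its fetal counterpart, made by the yolk sac and the fetal liver, silenced after birth and made again in many liver cancers; HepG2 cells are known to secrete both. The genes arose by duplication and lie in tandem, and the family also includes AFM, which encodes the plasma carrier afamin, and GC, which encodes the vitamin D binding protein. H3K36me3 is laid down by SETD2, which binds elongating RNA polymerase II, so the mark covers the bodies of transcribed genes and usually spares the promoter.

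Because the control peaks began close to the gene starts, the bases just before each start are shown, from RefSeq on GRCh38.p14, plus strand, 250 bases ending 1 base before the annotated start, with matches to the motifs named below in capitals. ALB is chr4:73404037-73404286 and AFP is chr4:73435971-73436220 in that build.
ALB: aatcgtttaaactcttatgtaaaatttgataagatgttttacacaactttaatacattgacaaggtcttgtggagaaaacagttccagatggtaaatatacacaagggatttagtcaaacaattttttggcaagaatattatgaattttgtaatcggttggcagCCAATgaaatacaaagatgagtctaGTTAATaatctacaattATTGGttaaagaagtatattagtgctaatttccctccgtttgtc
AFP: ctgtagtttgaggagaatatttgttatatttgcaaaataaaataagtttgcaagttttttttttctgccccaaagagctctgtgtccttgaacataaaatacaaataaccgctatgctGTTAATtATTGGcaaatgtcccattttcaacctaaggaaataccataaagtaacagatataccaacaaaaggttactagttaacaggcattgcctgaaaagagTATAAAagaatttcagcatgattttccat

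Both stretches are poor in G and C, at 30.0% in ALB and 31.6% in AFP, against a median of 58.0% (quartiles 46.4 and 68.0%) over 35116 promoter windows. GTTAAT, an arm of the palindrome bound by the liver factor HNF1, was searched on both strands and occurred once in ALB, from 61 to 56 bases before the start, and once in AFP, from 132 to 127 bases before it. Of all windows 6.23% held it. The full palindrome GTTAATNATTAAC was in neither gene and in 2 of the 35116 windows. CCAAT, on both strands, occurred at 2 places in ALB and 1 in AFP and in 32.0% of windows; TATAAA, on the plus strand, occurred in AFP from 29 to 24 bases before the start, not in ALB, and in 6.80% of windows. None of these motifs overlapped another. The motif shares are over windows with a median of 58.0% G and C. They are not shares for windows as poor in G and C as these stretches. The matches describe the letters only. Peaks are placed on hg19 and these letters on GRCh38.p14, so an edge of a peak was not placed on a base. The starts of ALB and AFP are also not equally far apart in the spans and in these windows. A start used for the letters may thus differ from the hg19 start used for the peaks.

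In the control, the peak over ALB ran from 50 bp before the gene start to 1042 bp past the gene end, 18.25 kb in all (chr4:74269922-74288171). It held 3842 tags, which is 211 tags per kb (204 to 217) or a tag density of 4.40 tags per kb per 1000000 filtered tags (Poisson interval 4.26 to 4.54). The AFP peak ran from 131 bp before the start to 903 bp past the end, 20.99 kb in all (chr4:74301802-74322791). It held 3870 tags, or 184 per kb (179 to 190) and a density of 3.85 (3.73 to 3.97). Each gene was thus covered from end to end, 100% of its length, by a single unbroken peak whose bounds kept to the gene within about 1 kb, with the longer overhang past the 3′ end in both. The mean fragment was taken as 294 bp by the authors' caller, so the overhangs at the 5′ ends are shorter than a fragment and those at the 3′ ends longer. In the knockdown list, 0% of ALB and 0% of AFP was covered.

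**Figure D1:**
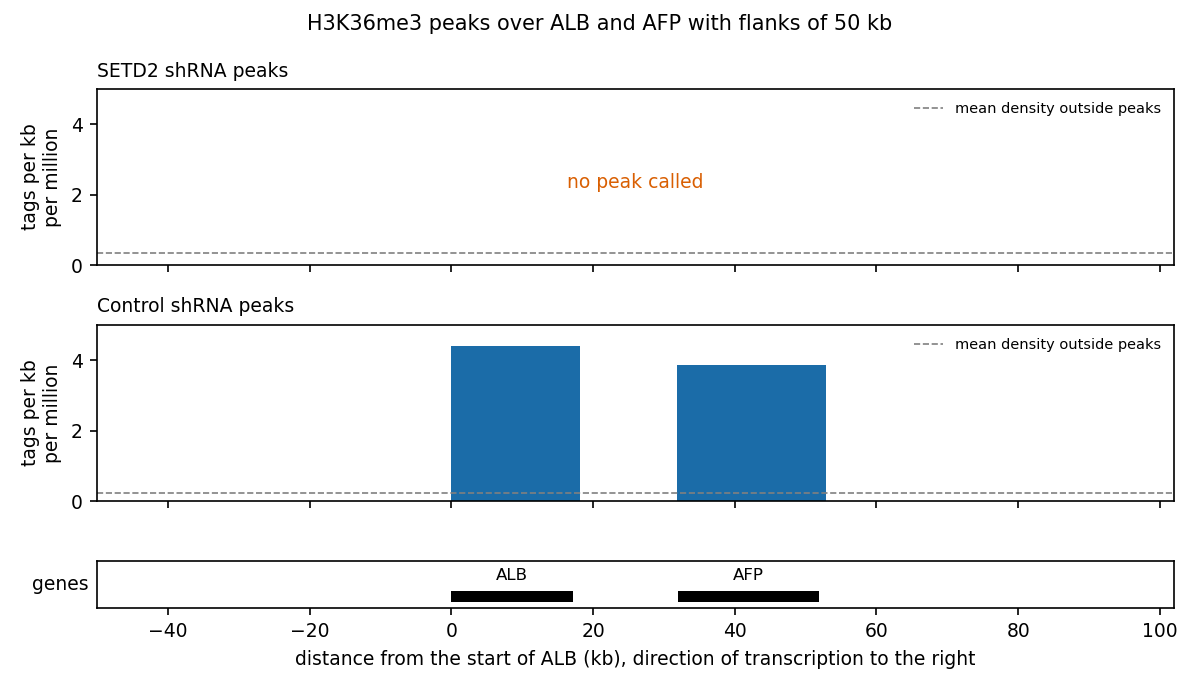
Peaks of the SETD2 shRNA list (top) and the control shRNA list (below) over ALB and AFP with 50 kb on each side; the x axis is the distance from the start of ALB in kb and bar height is tag density in tags per kb per 1000000 filtered tags. The control holds 1 peak over each gene, at 4.40 (ALB) and 3.85 (AFP), and the knockdown panel is empty; the dashed line is the list's mean density outside peaks, 0.337 in the knockdown and 0.235 in the control.

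ALB was the denser of the genes. Within the control immunoprecipitate its density was 1.14 times that of AFP (1.09 to 1.19, exact conditional binomial interval), so the gap was larger than counting error in this pooled library; the spread between cultures was not measured. Against the mean density outside control peaks, 0.235, ALB stood 18.7 times and AFP 16.4 times higher. The highest point of the ALB peak lay 13.3 kb from the gene start, 77.3% of the way along the gene. That of the AFP peak lay 3.25 kb from the start, at 16.3%. The summits were therefore in the 3′ part of ALB and in the 5′ part of AFP. Tags filled 10.5% of the strand positions available in the ALB peak and 9.22% in the AFP peak, with 1 tag kept per position.

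By density, both genes ranked near the top of the control list. ALB was 298th of 35375 peaks (the top 0.842%) and AFP 484th (the top 1.37%), where the median peak had 1.101 (quartiles 0.925 and 1.42). By tags they ranked 825th and 816th, and by width, less prominently, 2452nd and 1885th. The authors' fold enrichment over local input was 13.76 at ALB and 12.4 at AFP, ranks 1764 and 2376. Their scores, minus 10 times the log10 of the caller's p-value, were 3100, a value shared by 1318 control peaks, and 2950.4, and the false discovery rate (FDR) was 0% for both. On chromosome 4, ALB had the third and AFP the seventh highest density of 1732 control peaks. Together the domains held 7712 tags, 0.964% of the tags in control peaks of the chromosome on 0.383% of their length.

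The absence of a knockdown call is not a measured level. The deposited tables list tags only inside peaks, so the number of knockdown tags over ALB or AFP is unknown and no ratio between the conditions could be computed. At the control's density, the bounds of the ALB peak would hold 5380 tags in the knockdown library; at the knockdown's mean density outside peaks, 0.337, they would hold 412. For AFP these figures are 5420 and 474. Knockdown peaks at least as wide as the ALB peak, 446 in number, had densities from 1.02 to 4.40 with a median of 1.49.

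Missing a knockdown peak was common in the list as a whole and less so at peaks like these. Of all 35375 control peaks, 21412 had no knockdown peak over them by 1 bp or more (60.5%, exact binomial interval 60.0 to 61.0%), as did 1195 of the 1732 on chromosome 4 (69.0%, 66.8 to 71.2%). Most of those were weak and narrow. Among the 779 control peaks with 3001 to 5000 tags, which include ALB and AFP, 118 had none (15.1%, 12.7 to 17.9%). Of the 484 at least as dense as AFP, 121 had none (25.0%, 21.2 to 29.1%), and of the 2452 at least as wide as ALB, 380 had none (15.5%, 14.1 to 16.99%). Both genes missed a knockdown peak, 2 of 2, and with 2 members this count says nothing beyond the genes themselves.

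Where a control peak was both dense and wide, the missing share was higher. Of the 227 control peaks at least as dense as AFP and at least as wide as ALB, limits set by the genes' own values, 106 had no knockdown peak (46.7%, 40.1 to 53.4%). A 5% FDR limit on each list gave 77.2% here and 93.7% over all control peaks. That limit was not a like one in the lists. FDRs ran up to 92.83% in the knockdown and 18.77% in the control, both with a lowest score of 50. Without ALB and AFP the count was 104 of 225 (46.2%, 39.6 to 53.0%). The wide peaks of lower density missed a knockdown peak in 274 of 2225 cases (12.3%, 10.98 to 13.8%). Closer look-alikes were few: 11 other control peaks lay within 5% of the AFP peak in density and in width, and 2 of them had no knockdown peak. Of the 4 within 5% of ALB, 0 lacked one, which with 4 peaks allows a missing share of up to 60.2% (exact binomial).

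**Figure D2:**
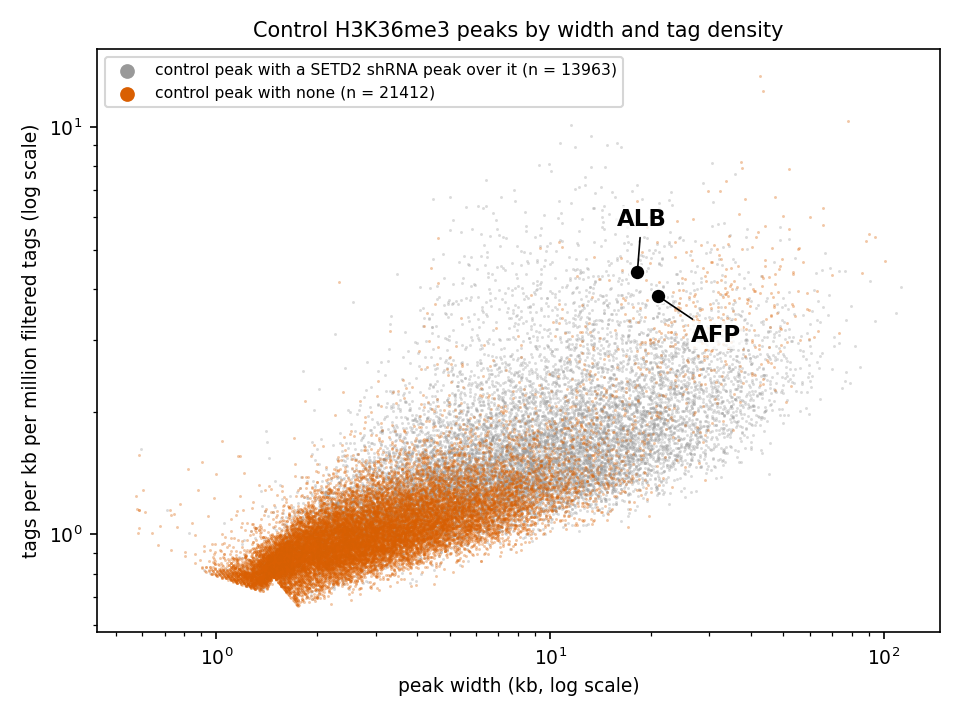
Each point is a control peak, by width in kb (x, log scale) and tag density in tags per kb per 1000000 filtered tags (y, log scale), coloured by whether a SETD2 shRNA peak overlaps it by 1 bp or more. ALB and AFP stand among the dense, wide peaks at the upper right, where points with and without a SETD2 shRNA peak are mixed, and far from the mass of narrow, weak peaks without one.

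The share of control peaks with a knockdown peak did not keep climbing with density. Among control peaks of 15 kb or more it was 93.3% (91.7 to 94.7%) at a density of 1.5 to 2 and 89.5% (87.6 to 91.1%) at 2 to 3. It was 67.7% (63.0 to 72.2%) at 3 to 4, the range of AFP, 63.7% (54.99 to 71.8%) at 4 to 5, the range of ALB, and 60.6% (50.3 to 70.3%) at 5 or more. Over peaks of all widths the fall was shallower. The share was 89.1% at 2 to 3, 77.5% at 3 to 4, 76.9% at 4 to 5 and 75.7% at 5 or more. Peaks are not replicates, and no p-value was computed for either trend. The shares count an overlap of 1 bp or more with any knockdown peak. Among peaks at least as wide as ALB that had one, the median length covered was 67.6% below the density of AFP. It was 93.7% at or above that density. Shares by density under a stricter match were not computed.

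**Figure D3:**
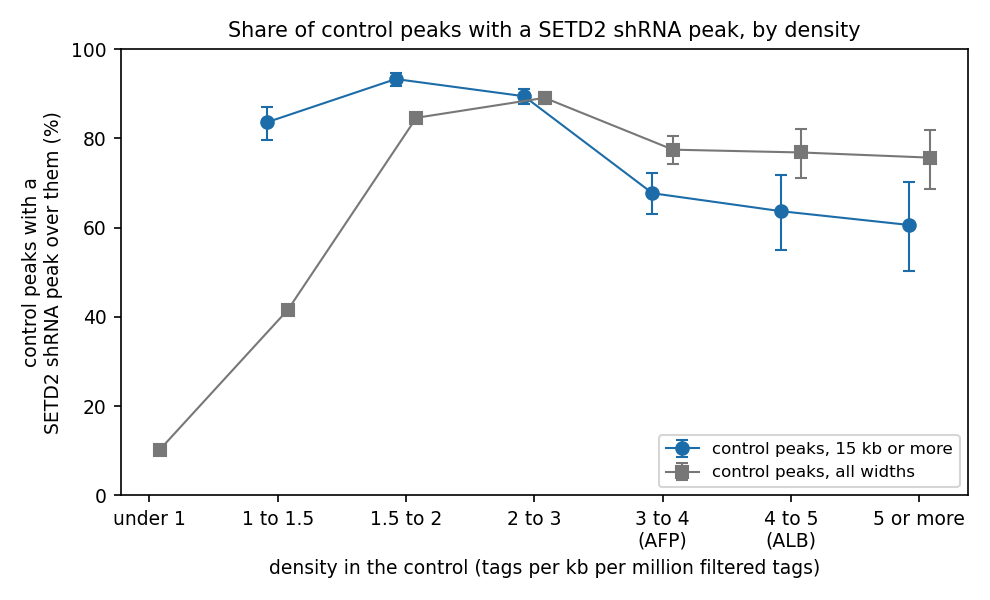
Percent of control peaks overlapped by a SETD2 shRNA peak (y) in classes of control tag density (x, tags per kb per 1000000 filtered tags), for peaks of 15 kb or more (circles) and for all widths (squares), with exact binomial 95% intervals. In the classes of AFP and ALB, wide peaks stand at 67.7% and 63.7%, below the 93.3% of wide peaks with a density of 1.5 to 2.

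At a like number of tags, the caller's scores were lower in the knockdown list, and they are given beside this result. Knockdown peaks with 3001 to 5000 tags numbered 112, had a median score of 838 and scored under 500 in 38.4% of cases. The 779 control peaks of that size had a median of 1762, with 21.4% under 500. A like tag count was not a like level, since the knockdown library was deeper. The median density was 2.02 in these knockdown peaks and 2.72 in these control peaks. The median fold enrichment was 8.395 and 14.81. Above 5000 tags, the size ALB and AFP would have in the knockdown at the control's density, 19 knockdown peaks were listed, with scores down to 53.4, and 477 control peaks, with scores down to 50.9. The lowest score in either list was 50. The part of the scores in the missing calls was not tested.

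The missing share among dense and wide control peaks also varied by chromosome. On chromosomes 2, 14, 16, 17 and 20, which HepG2 is known to carry in extra copies, 71 of 122 had no knockdown peak (58.2%, 48.9 to 67.1%), against 35 of 105 on the others (33.3%, 24.4 to 43.2%). The others were not uniform. Chromosome 5 had 0 of 5 without one, chromosome 12 had 2 of 10 and chromosome 1 had 5 of 17. Chromosome 6 had 11 of 19 (57.9%) and chromosome 7 had 3 of 4. Chromosome 4 held 5 such peaks, and the 2 without a knockdown peak were ALB and AFP. Copy number was not measured here, and its part in the calls was not tested.

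Of the 110 control peaks of chromosome 4 at least as wide as ALB, 10 had no knockdown peak (9.09%, 4.45 to 16.1%), ALB and AFP among them. Of the 7 control peaks of the chromosome at least as dense as AFP, a limit set by that gene's own value, 5 had a knockdown peak. At an FDR of 5% or less, 3 of these had one. The densest (chr4:39499506-39528726) had a density of 1.82 in the knockdown peak, which covered 99.5% of it, and 4.90 in the control. The next (chr4:83738321-83807143) had 1.84 in the knockdown, over 98.1% of its length, and 4.50 in the control. A wide one (chr4:187503223-187565138) had 1.19 over only 28.5% of its length in the knockdown, and 3.98 in the control. The remaining pair, both under 10 kb wide, had 1.55 and 2.04 in the knockdown, against 4.10 and 3.99 in the control. All 5 were thus less dense in the knockdown, each list by its own bounds. Over the 121 dense and wide control peaks of the whole list that had a knockdown peak, the median density was 2.07 in the knockdown and 4.66 in the control, a median log2 ratio of -1.20 (quartiles -1.35 and -1.03). Over all 13963 control peaks with a knockdown peak, the median log2 ratio was -0.659 (quartiles -0.862 and -0.439). The dense and wide peaks were chosen by high control density, the divisor of this ratio, so these medians are not a like comparison. A ratio also exists only where a knockdown peak was called, and the lowest such knockdown density was 0.598. Whether denser peaks lost more was not tested.

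**Figure D4:**
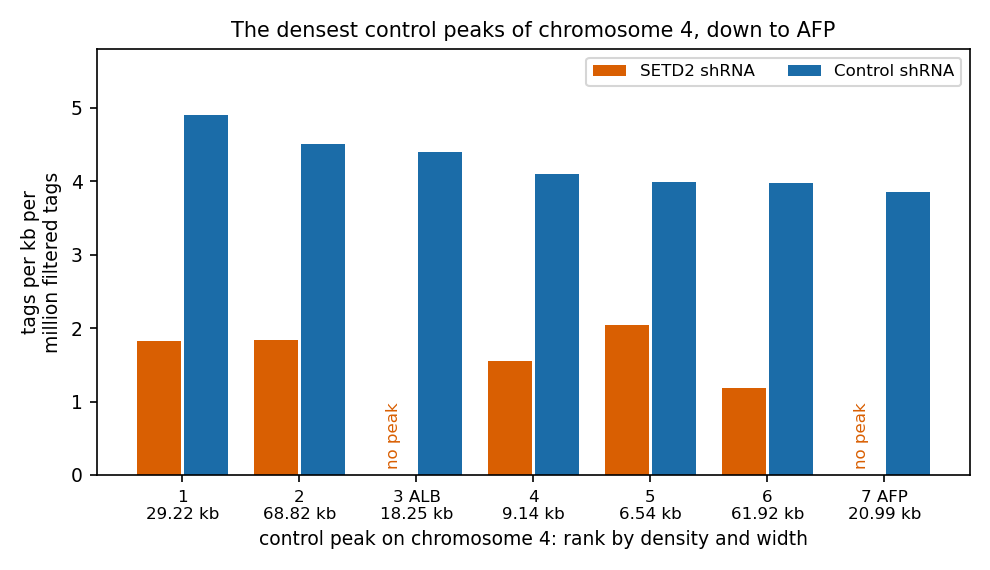
Tag density (tags per kb per 1000000 filtered tags) of the 7 densest control peaks of chromosome 4 (right bars) and of the SETD2 shRNA peaks over them (left bars), with rank and control width in kb on the x axis. Ranks 3 and 7, ALB and AFP, have no SETD2 shRNA peak, while the other 5 have densities of 1.19 to 2.04 there; bars carry no error because each list pools its replicates.

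Around the genes the chromosome was bare of peaks in both lists. The 13.6 kb between the control peaks held none, and beyond the overhangs named above neither list had a peak within 50 kb before ALB or 50 kb after AFP. The nearest peak upstream ended 149 kb before ALB in the knockdown and 147 kb before it in the control. The nearest downstream began 703 kb past AFP in either list. In RefSeq order on GRCh38.p14, the neighbouring protein-coding genes are ANKRD17 before ALB, and AFM and then RASSF6 after AFP. Their hg19 spans were not used here, so no peak was assigned to them or to GC.

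Within 1000 kb on either side, the knockdown list held 13 peaks over 83.8 kb and the control list 11 other peaks over 108 kb. Their densities ran from 0.796 to 1.18 in the knockdown and from 0.903 to 2.77 in the control, so no neighbour reached the density of AFP. Of the 11 control neighbours, 5 had no knockdown peak, where 60.5% of all control peaks had none, and 6 had one. By the caller's FDR these were weak calls: the 13 knockdown peaks had FDRs of 17.97 to 86.99%. At an FDR of 5% or less, 0 of the 11 had one. With that limit on each list, 93.7% of all control peaks had none, so the count is not particular to this stretch. The FDR was not on a like scale in the lists. A knockdown neighbour with a score of 545 had 17.97%, and a control neighbour with a score of 386 had 2.05%. The strongest (chr4:73938839-73968934), 301 kb upstream, had 3986 tags and a density of 2.77 (2.68 to 2.85) in the control. In the knockdown 3 peaks lay over it, covering 79.5% of it, with a summed density of 1.05 and a log2 ratio of -1.39. The single peak downstream (chr4:75025139-75029345) had 1.03 (0.903 to 1.17) in the knockdown and 1.599 (1.43 to 1.78) in the control. The 6 log2 ratios ran from -1.39 to -0.58, where the median over all control peaks with a knockdown peak was -0.659. That median is over control peaks of all densities and is given as a reference only.

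A stretch upstream had peaks in the knockdown list alone. There 5 knockdown peaks, with ends 240 to 277 kb before ALB and 39.5 kb long in all, overlapped no control peak. Their densities ran from 0.960 to 1.18 and their FDR from 18.0 to 57.7%, within the range of the 13 knockdown neighbours. The share of all knockdown peaks that overlap no control peak is not given here. The 5 are therefore described, not called unusual.

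**Figure D5:**
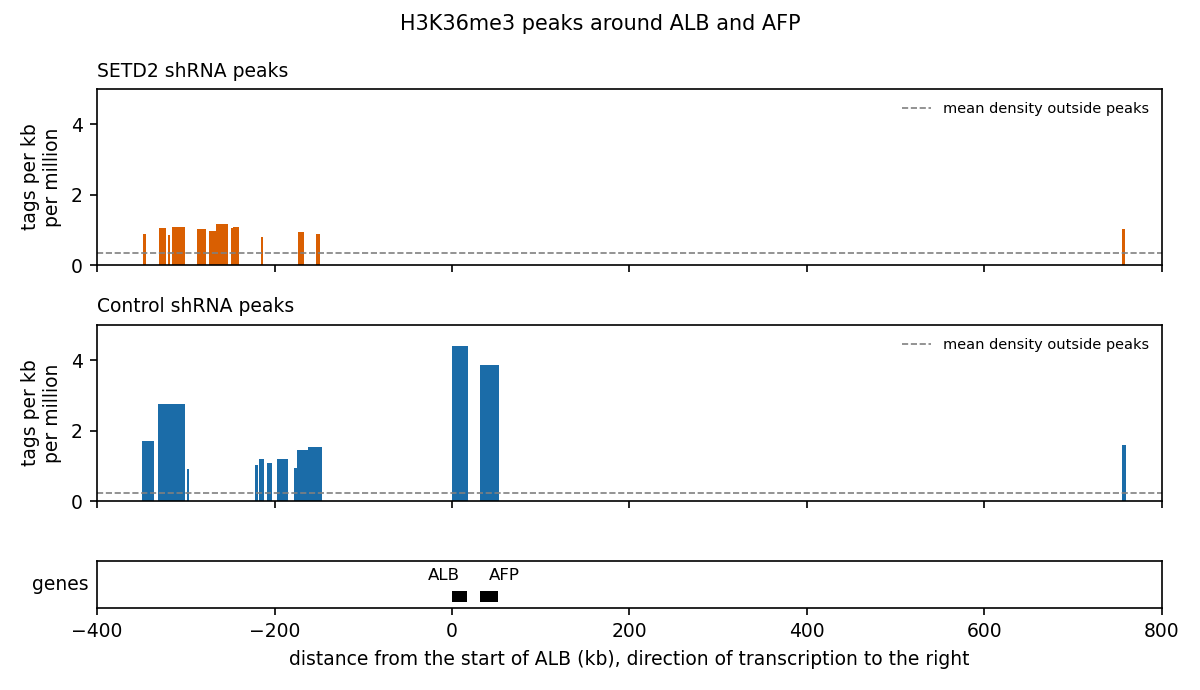
Peaks of the SETD2 shRNA list (top) and the control shRNA list (below) in a wider window around ALB and AFP; the x axis is distance in kb and bar height is tag density in tags per kb per 1000000 filtered tags. Upstream neighbours appear in both lists, at up to 1.18 in the knockdown and 2.77 in the control, while ALB and AFP, the tallest bars, appear in the control alone.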

How the data were processed

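Per the submitters' processing notes, reads were handled with FastQC 0.11.5 and Bowtie 1.1.2 on hg19. Peaks were called with MACS 1.4.2, per the file headers, on 1 merged immunoprecipitate against 1 merged input per condition, with a p limit of 1e-05, 1 duplicate tag per position and the larger dataset scaled to the smaller. The deposited tag counts are whole tags per peak, not normalized. The deposited score is minus 10 times the log10 of the caller's p-value, the deposited fold enrichment is a ratio over local input, and the deposited FDR is in percent, all by the authors' caller. The shorter deposited lists hold 1244 knockdown and 17856 control peaks.

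Tag density is tags divided by kb of peak and by filtered tags in units of 1000000, summed where several peaks lay over one. Intervals are exact (Poisson, or Clopper-Pearson binomial). The members and lists were chosen with earlier results of these data known. ALB and AFP, the members, were the only genes named with values. Other liver and lineage markers were not checked, since hg19 positions of other genes were not used here. A planned ratio of densities at each gene could not be computed. Calculations used Python 3.11.15, pandas 2.3.3, NumPy 2.4.6 and SciPy 1.17.1, plots matplotlib 3.10.9; steps were tested on simulated data.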

Additional observations from a re-analysis of the deposited data

How the results depend on the processing

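The covered share of ALB and AFP (0% in the knockdown, 100% in the control) and the bare flanks could not change under limits of 5% on the FDR, 100 on the score or 5 on fold enrichment, or with peaks merged within 3000 bp. Such limits only remove peaks, both control peaks pass each of them, and no other peak is near enough to merge. Flanks of 20 and 100 kb were also bare. Other shares moved with the limit, in settings chosen after seeing the data. The share of control peaks without a knockdown peak was 93.7% under the FDR limit, 63.1% under the score limit, 80.2% under the fold limit and 72.2% when 50% of the control peak had to be overlapped. Among peaks as dense as AFP and as wide as ALB it was 77.2% under the FDR limit and 53.7% under the fold limit; the cause was not tested. The control density of ALB was 3.82 with all tags as depth, 4.16 with the density outside peaks taken off and 3.13 scaled by input depth, and that of AFP 3.34, 3.62 and 2.75, by construction. The planned density ratios between conditions gave no value, since no knockdown peak lies over either gene. No paired analysis was possible because each peak list comes from pooled replicates, which also prevents leaving out a replicate.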
